A study of Mus musculus with 15 samples.

Results

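The EGF family comprises 7 secreted ligands here, Areg, Ereg, Hbegf, Tgfa, Egf, Btc and Epgn, and 3 receptors, Egfr, Erbb2 and Erbb3. These 10 genes were taken by name from 50600 genes listed for each library, and all 10 passed the filter on low counts that left 19107 genes for testing. The set was chosen by the measured levels of Areg, which had been seen to be much lower in thymic epithelium. Comparisons of thymic with other epithelium are therefore given for these genes as values without a test.

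The study sequenced RNA of FACS-sorted epithelium from 8 week old C57BL/6J males. Its 5 groups were the thymic epithelium of the cortex (cTEC) and of the medulla (mTEC) and the epithelium of the skin, of the colon and of the lung, with no genetic change or treatment named in the labels. Each group had 3 libraries, each from cells pooled from 5 mice, so n = 3 pools per group and every SD refers to pools. The KAPA RNA Stranded PolyA kit was used for both thymic groups and for skin, and the KAPA RNA HyperPrep PolyA kit for colon and lung, and the effects of kit and tissue cannot be told apart between these 2 sets.

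Gene reads per library ran from 12946533 to 41978665. The marker lists of cortex, skin, colon and lung were each highest in their own group, with Psmb11 at 332 CPM (gene reads scaled to a common library size) in cTEC and 19.1 CPM in mTEC. Aire was at 480 CPM in mTEC and 44.2 in cTEC, while the summed medullary list was higher in skin (12227 to 27671 CPM) than in mTEC (6645 to 8669 CPM), since it shares Krt5 and Krt14 with the skin list. Several libraries stood apart. The transcript Gm42418 took 14.8% of gene reads in skin replicate 1 and 4.89% in skin replicate 2, against 0.979% to 2.62% in the others. The summed cortical markers were 7836 CPM in cTEC replicate 3 against 3245 and 2754 in cTEC replicates 1 and 2. The skin libraries also carried 5 fibroblast markers at summed levels of 3578, 1152 and 6676 CPM in replicates 1 to 3, and the lung libraries carried 6 macrophage and dendritic cell markers at 1759 to 3290 CPM, mostly Lyz2 and Csf1r, with Adgre1 at 0.964 CPM. The part of these other transcripts in the results was not tested.

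EGF family ligands are made as membrane proteins and are cut loose by proteases such as ADAM17. They bind EGFR, which pairs with itself or with another receptor of the family and starts the RAS and ERK and the PI3 kinase cascades. ERBB2 has no known ligand of its own and acts as a partner, while ERBB3 binds neuregulins and has little kinase activity. In barrier epithelia the pathway is known for its part in growth, wound closure and differentiation.

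Of the 10 genes, 4 lie next to each other on mouse chromosome 5 (GRCm38). Epgn (chr5:91027464-91035215), Ereg (chr5:91074622-91093646) and Areg (chr5:91139599-91148432) are on the plus strand and Btc (chr5:91357261-91402994) is on the minus strand. The gaps between neighbours are 39.4, 46.0 and 209 kb, and the annotation (GENCODE M21) places no other protein-coding gene between them. The 3 noncoding genes listed in the interval, Gm19610, Gm23092 and Gm19619, reached at most 0.693 CPM in any library.

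The bases before the transcription start are shown for the 3 cluster genes that matched a RefSeq promoter entry (GRCm38.p6), because these neighbours had different patterns across the 5 groups. Each runs 5′ to 3′ on the gene's strand and ends at the base before the annotated start. Capitals mark the cAMP response element TGACGTCA and the TATA box TATAAA, searched on both strands together with the AP-1 letters TGACTCA.
Areg, chr5:91139349-91139598: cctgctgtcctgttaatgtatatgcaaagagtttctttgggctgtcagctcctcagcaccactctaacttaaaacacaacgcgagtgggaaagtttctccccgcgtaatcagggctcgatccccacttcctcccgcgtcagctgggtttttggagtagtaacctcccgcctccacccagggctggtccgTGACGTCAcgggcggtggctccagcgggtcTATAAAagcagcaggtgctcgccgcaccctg
Epgn, chr5:91027267-91027463: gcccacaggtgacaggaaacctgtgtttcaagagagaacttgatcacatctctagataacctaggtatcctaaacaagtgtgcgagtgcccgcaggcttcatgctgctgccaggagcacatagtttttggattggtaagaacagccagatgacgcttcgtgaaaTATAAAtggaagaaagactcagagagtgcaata
Btc, chr5:91402995-91403244: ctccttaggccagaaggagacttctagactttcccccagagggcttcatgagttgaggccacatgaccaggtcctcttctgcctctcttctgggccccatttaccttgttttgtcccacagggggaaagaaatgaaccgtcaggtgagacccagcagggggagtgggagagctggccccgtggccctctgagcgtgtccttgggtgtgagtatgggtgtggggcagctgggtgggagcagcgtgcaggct

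The Areg sequence holds TGACGTCA 61 bases and TATAAA 31 bases before the start. The Epgn sequence holds TATAAA 33 bases before the annotated start, which is 86 bases before the start of its RefSeq promoter entry. The Btc sequence holds none of the 3 motifs. In windows of 250 bases before the start of 32851 mouse promoters, TGACGTCA occurred in 1.55%, TGACTCA in 4.46% and TATAAA in 12.4%. These matches describe the letters alone.

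Areg encodes amphiregulin, an EGFR ligand. Its levels in replicates 1 to 3 were 2.24, 1.61 and 1.12 CPM in cTEC and 4.31, 3.18 and 3.03 CPM in mTEC. They were 106, 138 and 81.6 CPM in skin, 400, 354 and 360 CPM in colon and 167, 99.3 and 85.9 CPM in lung. All 6 thymic libraries lay below all 9 others, colon was highest, and skin and lung overlapped. The mean over the thymic libraries was exceeded 42.1-fold in skin, 144-fold in colon and 45.5-fold in lung, and skin alone, within the same kit, stood 31.0-fold above mTEC. In bulk libraries such as these, fewer cells that express a gene and less RNA per cell cannot be told apart. Areg was higher in mTEC than in cTEC by 1.07 ± 0.32 (log2 fold change ± SE, edgeR adjusted p = 0.0261), with no overlap of libraries, on 96 reads in all of cTEC and 213 in all of mTEC. That call was lost when cTEC replicate 2, cTEC replicate 3 or mTEC replicate 1 was left out (edgeR adjusted p = 0.0770, 0.111 and 0.115) and when these 2 groups were fitted alone (0.0667). Areg was lower in lung than in colon (log2 fold change -1.66 ± 0.26, edgeR adjusted p = 6.56e-05), a 3.16-fold difference. It was lower in skin than in colon as well (log2 fold change -1.77 ± 0.26, edgeR adjusted p = 3.88e-05), and skin and lung differed by -0.11 ± 0.25 (edgeR adjusted p = 0.734). Mast cells, basophils and innate lymphoid cells also make amphiregulin. The 8 markers listed for them summed to 283 to 364 CPM in skin, of which Gata3 gave 325 CPM as a mean while Cpa3 and Ms4a2 had 0 reads, and to at most 1.12 CPM in colon and 0.584 CPM in lung. In the thymus they summed to 20.1 to 24.7 CPM in cTEC and 41.5 to 80.3 CPM in mTEC, mostly Gata3 and Il13. None of the 8 was at 0, but Cpa3, Ms4a2, Tpsb2 and Mcpt4 had at most 8 reads each in all of cTEC. The sum was higher in mTEC as Areg was. In all of mTEC, Ms4a2, Tpsb2 and Mcpt4 had 61, 191 and 147 reads, while Cpa3 had 2 reads in all of each thymic group. The part of these cells in the level of Areg was not tested.

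**Figure D1:**
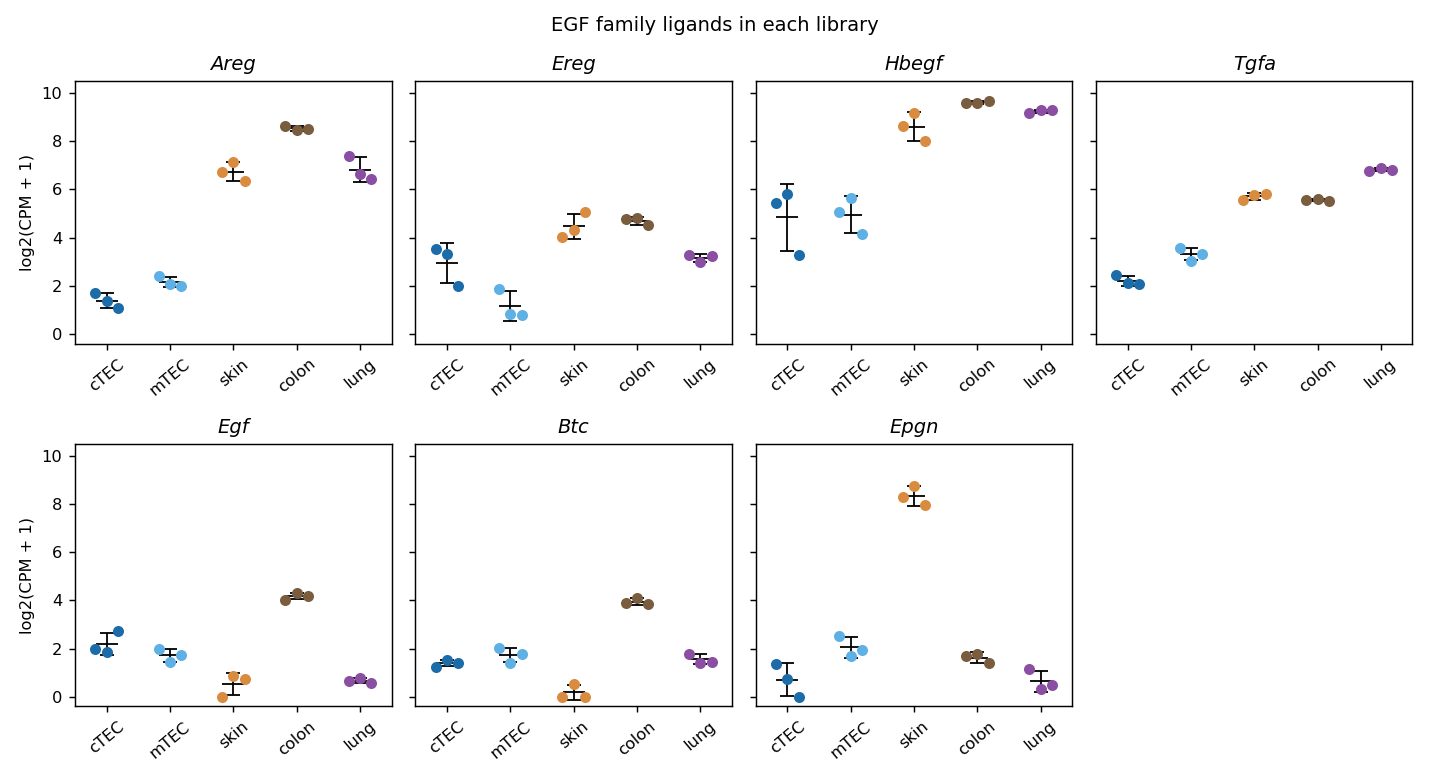
Levels of the 7 ligands in each library, as log2(CPM + 1), with 1 point per library and the mean ± SD of the 3 libraries of a group as bars. Areg, Hbegf and Tgfa are low in all 6 thymic libraries, Epgn is high in skin, and Egf and Btc are highest in colon.

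Hbegf (mouse chromosome 18), which encodes heparin-binding EGF-like growth factor, had the highest mean TPM of the ligands in 4 of the 5 groups. It reached 761, 770 and 822 CPM in colon replicates 1 to 3, 574, 628 and 620 CPM in lung and 397, 582 and 255 CPM in skin. In cTEC it was at 42.6, 55.0 and 8.61 CPM and in mTEC at 32.7, 49.0 and 16.6 CPM. All 6 thymic libraries lay below the 9 others, and cTEC and mTEC overlapped. The thymic mean was exceeded 12.1-fold in skin, 23.0-fold in colon and 17.8-fold in lung. In the fit of all 5 groups, no difference passed the test between mTEC and cTEC (log2 fold change -0.11 ± 0.50, edgeR adjusted p = 0.896), between lung and colon (-0.37 ± 0.49, 0.544), between skin and colon (-0.93 ± 0.49, 0.120) or between skin and lung (-0.56 ± 0.49, 0.340). That fit takes the spread from all groups together, so it does not show equal levels outside the thymus. All colon libraries lay above all lung and skin libraries. With only the 2 groups compared in the fit, Hbegf was called lower than in colon both in lung (edgeR adjusted p = 0.00814) and in skin (0.0359). Hbegf had wide spread in the thymus, where cTEC replicate 3 held 154 reads against 895 and 988 in the other cTEC libraries. The 17 genes of a dissociation response list, immediate early and heat shock genes induced while tissue is taken apart, were also lowest in that cTEC library, at a summed 23959 CPM against 36348 and 54042 CPM. Their sums were 24597 to 35735 CPM in mTEC and 23762 to 41015 CPM in skin. In colon they were 14637 to 19453 CPM and in lung 21968 to 24561 CPM. Within mTEC, replicate 2 had the highest sum and the most Hbegf. The lowest mTEC sum was in replicate 1, while replicate 3, with a sum of 26386 CPM, had the least Hbegf. The part of these 17 genes in the levels of Hbegf, Areg and Ereg was not tested.

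Tgfa encodes transforming growth factor alpha, an EGFR ligand long studied in skin. It was at 108, 117 and 110 CPM in lung replicates 1 to 3, at 45.8, 53.3 and 55.9 CPM in skin and at 46.2, 47.4 and 45.2 CPM in colon. In mTEC it was at 10.9, 7.25 and 9.10 CPM and in cTEC at 4.47, 3.28 and 3.19 CPM. Lung stood above skin and colon, which overlapped, and mTEC stood above cTEC with no overlap. Tgfa was higher in mTEC than in cTEC by 1.31 ± 0.17 (edgeR adjusted p = 0.00018), a 2.48-fold difference. It was higher in lung than in colon by 1.27 ± 0.16 (edgeR adjusted p = 7.33e-06) and lower in skin than in lung (log2 fold change -1.11 ± 0.16, edgeR adjusted p = 2.63e-05), while skin and colon differed by 0.16 ± 0.16 (edgeR adjusted p = 0.403). The extrathymic means stood 7.27-fold (colon) to 17.6-fold (lung) above the thymic mean.

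Epgn encodes epigen, a ligand known from epithelium, and was a skin transcript in these data. It was at 316, 431 and 245 CPM in skin replicates 1 to 3. No other library exceeded 4.81 CPM, with means of 0.746 ± 0.788 in cTEC, 3.30 ± 1.35 in mTEC, 2.10 ± 0.446 in colon and 0.611 ± 0.516 CPM in lung (SD, n = 3). The cTEC replicate 3 library held 0 reads, which at its depth allows up to 0.168 CPM for a count of 0 (3 reads, counting error only). Skin stood 163-fold above the thymic mean within the same kit. Skin was higher than colon by 7.29 ± 0.63 (edgeR adjusted p = 1.74e-07) and higher than lung by 9.08 ± 0.69 (edgeR adjusted p = 4.49e-08). Among the groups low in Epgn, mTEC was higher than cTEC by 2.09 ± 0.65 (edgeR adjusted p = 0.0305), on 202 reads in all of mTEC and 45 in all of cTEC, and lung was lower than colon (log2 fold change -1.79 ± 0.63, edgeR adjusted p = 0.0245). Both calls depended on single libraries. The first was lost without cTEC replicate 2, cTEC replicate 3, mTEC replicate 1 or mTEC replicate 3 (edgeR adjusted p = 0.0942, 0.0756, 0.133 and 0.0542) and with these 2 groups fitted alone (0.0870), and the second without colon replicate 1, colon replicate 2, lung replicate 2 or lung replicate 3 (0.0549, 0.0732, 0.0988 and 0.0863).

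Ereg encodes epiregulin, which binds EGFR and ERBB4, and it was the ligand called higher in cortex than in medulla. Its levels were 10.6, 8.91 and 3.02 CPM in cTEC replicates 1 to 3 and 2.66, 0.781 and 0.736 CPM in mTEC. They were 15.5, 18.8 and 32.2 CPM in skin, 26.1, 27.0 and 21.7 CPM in colon and 8.58, 6.91 and 8.51 CPM in lung. All mTEC libraries lay below all others, cTEC overlapped lung, and skin overlapped colon. Ereg was lower in mTEC than in cTEC (log2 fold change -2.43 ± 0.51, edgeR adjusted p = 0.0041), and lower in lung than in colon (log2 fold change -1.64 ± 0.46, edgeR adjusted p = 0.0070). It was higher in skin than in lung by 1.48 ± 0.47 (edgeR adjusted p = 0.0130), a call lost without skin replicate 3 (0.0542). That library had the most Ereg and the highest sum of fibroblast markers among the skin libraries. The antisense gene Gm19610 overlaps the start of Ereg, and the counts are by strand.

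Egf and Btc, the genes of epidermal growth factor and betacellulin, were highest in colon and had hardly any reads in skin. Egf was at 15.3, 18.9 and 17.4 CPM in colon replicates 1 to 3, at 2.95, 2.67 and 5.59 CPM in cTEC and at 2.96, 1.73 and 2.34 CPM in mTEC. It was at 0.553, 0.723 and 0.495 CPM in lung and at 0, 0.795 and 0.667 CPM in skin, where the 3 libraries held 0, 9 and 11 reads. The thymic libraries therefore lay below colon and above lung and skin. Btc was at 13.9, 16.4 and 13.3 CPM in colon, and its means were 2.37 ± 0.670 CPM in mTEC, 1.95 ± 0.446 in lung and 1.61 ± 0.229 in cTEC, which overlapped. In skin, 5 reads of Btc were counted, all in replicate 2, and a count of 0 allows up to 0.282 CPM in replicate 1 and 0.182 CPM in replicate 3. Compared with colon, Egf was lower in lung (log2 fold change -4.85 ± 0.58, edgeR adjusted p = 4.57e-06) and in skin (-5.08 ± 0.61, edgeR adjusted p = 5.54e-06). Btc was lower than in colon both in lung (log2 fold change -2.89 ± 0.53, edgeR adjusted p = 0.000268) and in skin (-6.69 ± 0.73, edgeR adjusted p = 1.91e-06). Btc was also lower in skin than in lung (log2 fold change -3.80 ± 0.73, edgeR adjusted p = 0.000378), and the sizes against skin rest on those 5 reads. Neither gene passed the test between mTEC and cTEC (log2 fold change -0.67 ± 0.50 for Egf and 0.56 ± 0.52 for Btc, edgeR adjusted p = 0.363 and 0.473).

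Egfr, the receptor for all 7 ligands, did not follow the ligands. Its levels were 235, 193 and 230 CPM in cTEC replicates 1 to 3, 119, 146 and 132 CPM in mTEC and 153, 134 and 205 CPM in skin. They were 182, 192 and 170 CPM in lung and 55.8, 59.2 and 59.9 CPM in colon. All cTEC libraries lay above those of mTEC, lung and colon, and all colon libraries lay below the others. Egfr was lower in mTEC than in cTEC (log2 fold change -0.73 ± 0.15, edgeR adjusted p = 0.0040). It was higher than in colon by 1.64 ± 0.16 in lung (edgeR adjusted p = 4.87e-07) and by 1.49 ± 0.16 in skin (edgeR adjusted p = 1.27e-06), and differed by -0.14 ± 0.15 between skin and lung (edgeR adjusted p = 0.441). Without skin replicate 3, the skin library with the most Egfr and the highest fibroblast sum, Egfr was lower in skin than in lung (log2 fold change -0.35, edgeR adjusted p = 0.0371). The colon libraries thus combined the most Areg and Hbegf with the least Egfr.

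Erbb2 was a skin-high receptor, at 267, 304 and 205 CPM in skin replicates 1 to 3, against 139, 105 and 148 CPM in colon and 82.1, 70.0 and 68.3 CPM in lung. It was at 73.4, 52.7 and 78.2 CPM in mTEC and at 38.7, 34.2 and 39.0 CPM in cTEC. Skin lay above colon and colon above lung without overlap, lung and mTEC overlapped, and cTEC was lowest. Erbb2 was higher in mTEC than in cTEC by 0.87 ± 0.19 (edgeR adjusted p = 0.0044). It was higher in skin than in colon by 0.99 ± 0.18 (edgeR adjusted p = 0.000326) and than in lung by 1.82 ± 0.19 (edgeR adjusted p = 1.04e-06), and lower in lung than in colon (log2 fold change -0.83 ± 0.18, edgeR adjusted p = 0.00124). Mien1 overlaps Erbb2 on the opposite strand.

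Erbb3 was the receptor that was low in all thymic libraries. It was at 14.5, 13.4 and 10.9 CPM in cTEC replicates 1 to 3 and at 36.2, 23.7 and 22.7 CPM in mTEC. The levels were 427, 326 and 405 CPM in colon, 284, 273 and 193 CPM in skin and 216, 188 and 148 CPM in lung. Every thymic library lay below the other 9, mTEC lay above cTEC, and skin and lung overlapped. The thymic mean was exceeded 12.4-fold in skin, 19.1-fold in colon and 9.10-fold in lung. Erbb3 was higher in mTEC than in cTEC by 1.09 ± 0.22 (edgeR adjusted p = 0.0032), a 2.13-fold difference, and lower in lung than in colon (log2 fold change -1.07 ± 0.21, edgeR adjusted p = 0.000549). It was lower in skin than in colon (log2 fold change -0.63 ± 0.21, edgeR adjusted p = 0.0201), and that call was lost without skin replicate 3, colon replicate 1 or colon replicate 3 (0.0618, 0.0632 and 0.0501). Between skin and lung it differed by 0.44 ± 0.21 (edgeR adjusted p = 0.0841), and without skin replicate 3 by 0.59 (0.0266).

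**Figure D2:**
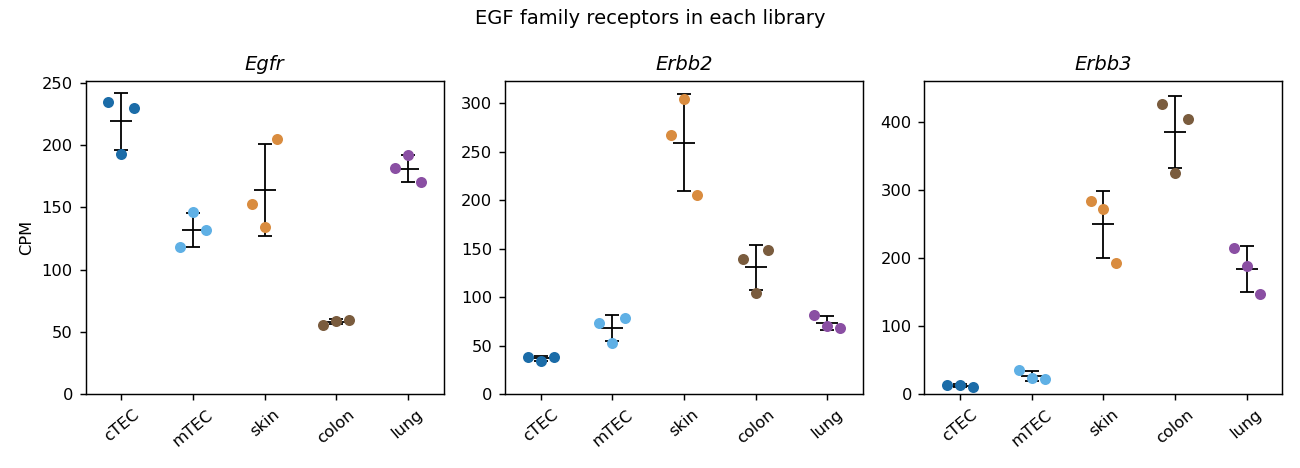
Levels of the 3 receptors in each library in CPM on a linear axis, with 1 point per library and the mean ± SD of the 3 libraries of a group as bars. Egfr is highest in cTEC and lowest in colon, Erbb2 is highest in skin, and Erbb3 is lowest in the 6 thymic libraries.

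Levels of different genes were compared in the authors' TPM, which scale reads by transcript length. The 7 ligands together came to 34.4 ± 15.6 TPM in cTEC and 38.8 ± 11.7 in mTEC, against 552 ± 112 in skin, 769 ± 12.6 in colon and 518 ± 40.2 TPM in lung (SD, n = 3). Hbegf made up 63.7% ± 17.9 of this sum in cTEC, 58.4% ± 14.3 in mTEC, 66.4% ± 7.29 in lung and 48.2% ± 2.26 in colon. In colon Areg contributed 47.7% ± 2.34. Skin differed in its make-up, with Epgn at 41.5% ± 1.57, Hbegf at 35.5% ± 4.17 and Areg at 18.9% ± 0.806. Areg was 7.19% ± 2.81 of the ligand sum in cTEC, 13.7% ± 3.31 in mTEC and 26.2% ± 7.87 in lung.

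The 3 receptors together ranged less, from 66.7 ± 5.62 TPM in mTEC and 70.7 ± 15.5 TPM in cTEC to 114 ± 11.9 TPM in colon and 135 ± 14.0 TPM in skin. Their make-up differed by tissue. Egfr was 77.5% ± 1.76 of the receptor sum in cTEC and 53.4% ± 6.79 in mTEC, where Erbb2 was 35.2% ± 5.06. Erbb3 was 63.6% ± 1.26 in colon and 41.6% ± 2.90 in lung, and Erbb2 was 43.7% ± 5.20 in skin. In colon Egfr was 10.3% ± 0.836 of the receptor sum, the lowest of the 5 groups.

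**Figure D3:**
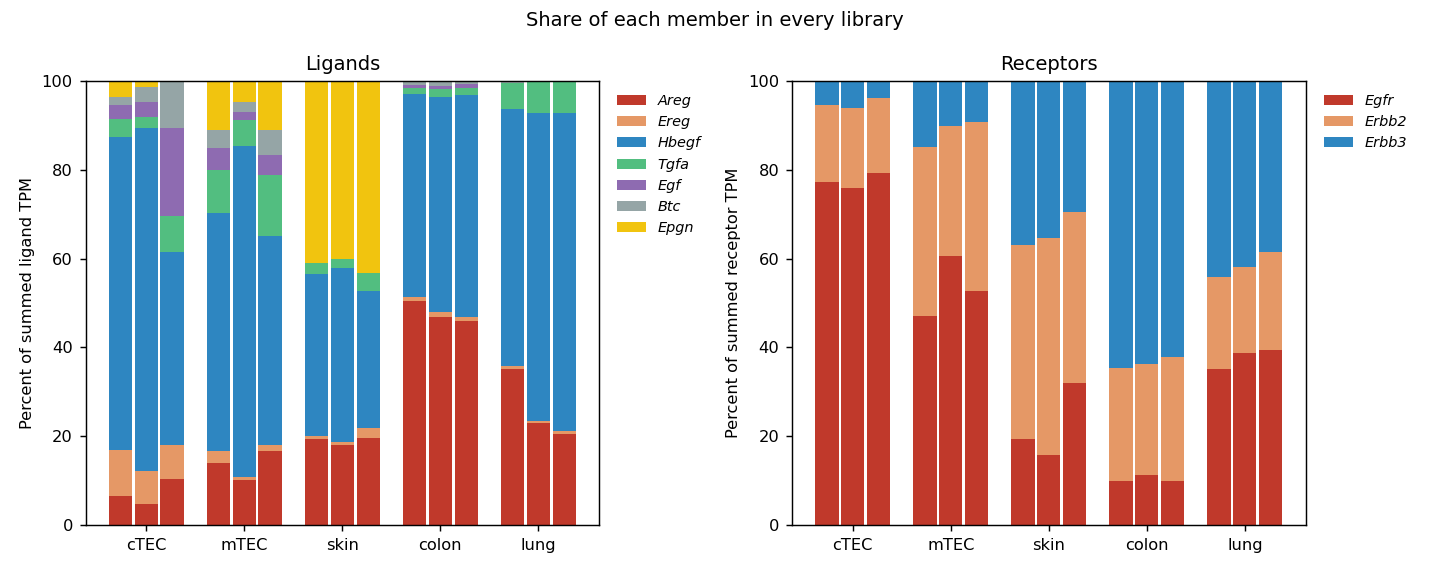
Percent of the summed ligand TPM (left) and receptor TPM (right) held by each gene, with 1 stacked bar per library in replicate order within each group. Hbegf leads the ligands in the libraries outside skin except colon replicate 1, where Areg leads with 50.4% against 45.7%, and Epgn leads in skin, while Egfr leads the receptors in the thymic libraries, Erbb2 in skin and Erbb3 in colon.

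Across the whole family, all 6 thymic libraries lay below all 9 others for 4 of the 10 genes, Areg, Hbegf, Tgfa and Erbb3, where 4.52% of all genes tested did so. They lay above all others for 0 of 10, where 10.1% of all genes tested did. Within the single kit shared with skin, the thymic libraries lay below all skin libraries for 7 of 10, above them for 2, Egf and Btc, and overlapped for Egfr. Among all genes tested those shares were 16.9% and 25.7%. The choice of the family used this contrast, so nothing is read from these counts. The fitted log2 differences of thymic from extrathymic epithelium ran from -6.11 for Areg through -4.09 for Hbegf, -3.79 for Erbb3 and -3.48 for Tgfa to 0.31 for Btc, 0.50 for Egfr and 0.77 for Egf. Btc had 5 reads in skin, all in replicate 2, and its value was 1.86 without that library, 0.14 without skin replicate 1 and 0.079 without skin replicate 3. It was 0.97 with RSEM expected counts and 0.47 with upper quartile scaling.

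Within the thymus, mTEC had more Tgfa, Erbb3, Erbb2, Areg and Epgn than cTEC, and less Ereg and Egfr. Of the 10 genes, 5 were higher and 2 lower, and 3 did not pass the test. Of all genes tested, 24.7% were called, 15.2% higher and 9.45% lower. The median log2 fold change was 0.71 over the 10 genes and 0.07 over all genes tested. Only 3 of the 10 were called higher when these 2 groups were fitted alone, or without cTEC replicate 2, cTEC replicate 3 or mTEC replicate 1, the calls lost being Areg and Epgn as given above. Markers of thymocytes and T cells were at 89.9 to 124 CPM in cTEC and 31.5 to 53.4 CPM in mTEC. Other lists were higher in mTEC without overlap. Macrophage and dendritic cell markers summed to 33.1 to 51.8 CPM in cTEC and 90.8 to 185 CPM in mTEC, and neutrophil markers to 3.69 to 9.13 CPM in cTEC and 42.0 to 88.1 CPM in mTEC. Markers of melanocytes and of the 3 extrathymic epithelia were also higher in mTEC, as was the sum for mast cells, basophils and innate lymphoid cells given above. The part of these cells and transcripts in the comparison was not tested.

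Outside the thymus, 9 of the 10 genes were called between lung and colon, 7 between skin and colon and 5 between skin and lung. From colon to lung, Tgfa and Egfr were higher and 7 genes were lower, with Hbegf not called, while 58.6% of all genes tested were called, 30.4% higher and 28.3% lower. From colon to skin, Epgn, Egfr and Erbb2 were higher, Egf, Btc, Areg and Erbb3 were lower and 3 did not pass, beside 58.2% of all genes tested, 27.4% higher and 30.8% lower. From lung to skin, Epgn, Ereg and Erbb2 were higher, Btc and Tgfa were lower and 5 did not pass, beside 60.4% of all genes tested, 26.7% higher and 33.7% lower. The median log2 fold changes over the 10 genes were -1.36, -0.40 and -0.13, against 0.00, -0.05 and -0.15 over all genes tested. Skin differs from colon and lung also in kit, and the p-values measure the spread between pools.

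**Figure D4:**
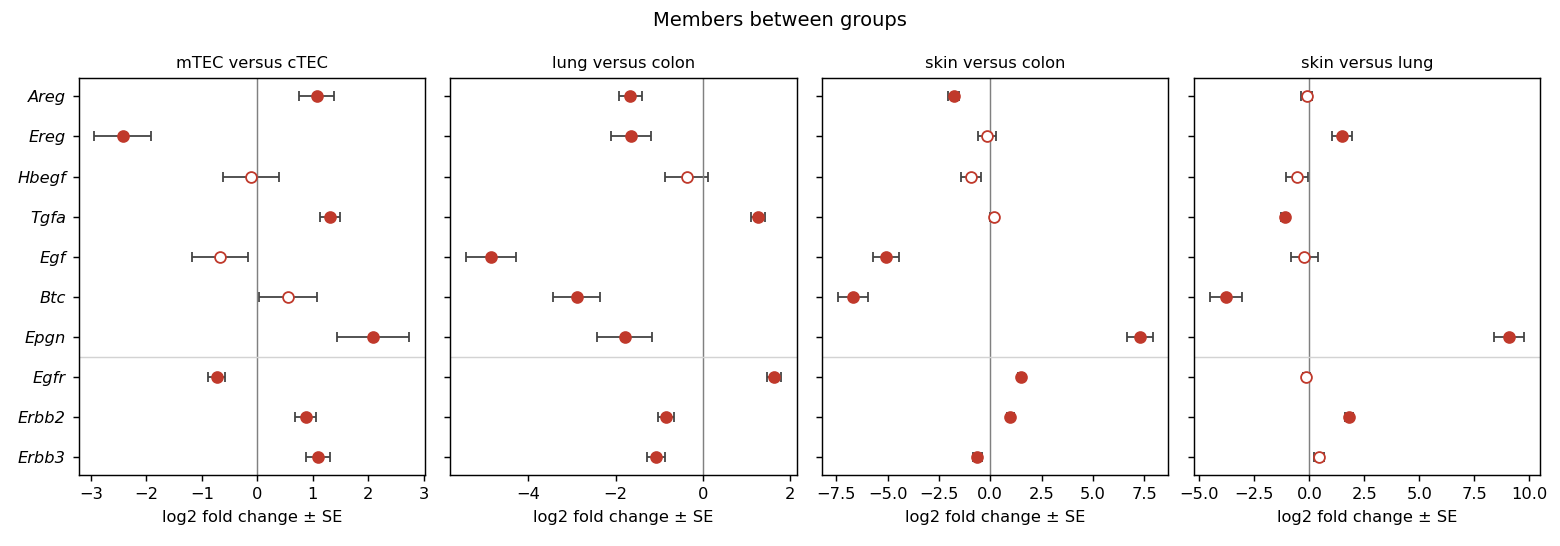
Log2 fold changes ± SE of the 10 genes in the 4 comparisons tested, with filled points called at an edgeR adjusted p under 0.05 and open points not called. The horizontal scales differ between panels, and a grey line parts the ligands from the receptors.

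The other genes of the pathway were described from a list of 55, of which 53 were tested. Erbb4, the remaining receptor of the family, and the neuregulin gene Nrg3 were removed by the filter, with 23 reads of Erbb4 in all of mTEC and 0 in all of skin. Thymic epithelium was lower than skin in 29 of the 53 genes and higher in 8, while 25.6% of all genes tested were lower and 35.6% higher (61.2% together). The median log2 fold change was -0.51 over the 53 genes and 0.21 over all genes tested. Against skin, colon and lung together, 31 were lower and 9 higher, beside 26.9% and 37.3% of all genes tested (64.2% in either direction).

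Transcripts that respond to ERK were mostly lower in the thymus. Of 9 such genes, 8 were lower in thymic epithelium than in skin and 1, Dusp4, was higher, beside 25.6% and 35.6% of all genes tested. Thymic here is the average of cTEC and mTEC, and not each of the 8 was lower in both. Ccnd1 was at 53.9 ± 2.90 CPM in cTEC, but at 122 ± 9.19 in mTEC beside 118 ± 11.1 CPM in skin. Fosl1, a partner of JUN in AP-1, was at 32.8 ± 23.2 CPM in cTEC and 55.1 ± 42.9 in mTEC, and at 1299 ± 415 CPM in skin (SD, n = 3), lower (log2 fold change -4.93 ± 0.52, edgeR adjusted p = 1.82e-06). Etv5, a transcription factor of the ETS family, was at 5.87 ± 1.10 CPM in cTEC and 2.45 ± 0.667 in mTEC, and at 16.2 ± 2.48 CPM in skin, lower (log2 fold change -2.09 ± 0.26, edgeR adjusted p = 9.14e-06). Dusp4, a phosphatase that acts on ERK, was at 111 ± 33.7 CPM in mTEC, 16.6 ± 7.82 in cTEC and 3.85 ± 3.66 CPM in skin, higher in the thymus by 3.41 ± 0.50 (edgeR adjusted p = 3.78e-05). Against all extrathymic epithelium, 6 of the 9 were lower and Dusp4 was higher, beside 26.9% and 37.3% of all genes tested. Colon held Dusp4 at 94.1 ± 7.40 CPM. The cTEC library lowest in the dissociation response list, replicate 3, also had the least Fosl1 and Myc of the cTEC libraries, at 8.39 and 67.8 CPM. It had the least Dusp4, Dusp5, Dusp6, Phlda1 and Ccnd1 as well. Etv4 was not lowest in that library, and Etv5 was highest there, at 6.71 CPM. In mTEC, replicate 3 had the least Fosl1, Myc, Dusp4, Dusp5, Dusp6 and Phlda1 and the most Ccnd1 and Etv5. The dissociation sum of that mTEC library was not the lowest of mTEC. The part of the dissociation response in the ERK-responsive transcripts was not tested.

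Inhibitors of the receptors and of RAS were also mostly lower. Of 14, 9 were lower in thymic epithelium than in skin and 1 was higher (64.3% and 7.14%), beside 25.6% and 35.6% of all genes tested. Against all extrathymic epithelium 9 were lower and 0 higher, beside 26.9% and 37.3% of all genes tested. Spry1, an inhibitor of receptor tyrosine kinase signals, was at 40.2 ± 6.14 CPM in cTEC and 31.3 ± 2.23 in mTEC, and at 164 ± 77.4 in skin, 81.4 ± 15.9 in colon and 299 ± 11.5 CPM in lung (SD, n = 3). It was lower in the thymus than in skin (log2 fold change -2.21 ± 0.24, edgeR adjusted p = 2.09e-06). Its relative Spry2 was higher in the thymus than in skin, by 1.22 ± 0.15 (edgeR adjusted p = 7.05e-06), at 66.2 ± 3.92 CPM in cTEC and 56.5 ± 8.93 in mTEC, and at 26.3 ± 4.63 CPM in skin. Colon, at 132 ± 13.9 CPM, had more Spry2 than any other group. Cblb, a ubiquitin ligase, was lower than in skin (log2 fold change -1.18 ± 0.16, edgeR adjusted p = 1.53e-05).

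Genes listed for ligand release split by member. The list also holds Timp3, which encodes an inhibitor of metalloproteases and does not itself release ligands. Timp3 was at 223 ± 7.66 CPM in cTEC, 406 ± 78.3 in mTEC and 265 ± 201 CPM in skin. It was at 251 ± 64.0 CPM in colon and 4069 ± 362 CPM in lung (SD, n = 3). Of 9 genes, 4 were lower in thymic epithelium than in skin and 1 was higher (44.4% and 11.1%), beside 25.6% and 35.6% of all genes tested. Against all extrathymic epithelium 6 were lower and 2 higher (66.7% and 22.2%), beside 26.9% and 37.3% of all genes tested. Rhbdf1 and Rhbdf2, which carry ADAM17 to the cell surface, were lower than in skin (log2 fold change -1.21 ± 0.14 and -1.27 ± 0.18, edgeR adjusted p = 5.02e-06 and 2.48e-05). Rhbdf2 was at 66.3 ± 5.83 CPM in cTEC and 92.3 ± 20.8 in mTEC, and at 189 ± 62.9 CPM in skin. Adam12, a metalloprotease that can cleave HB-EGF, was higher in the thymus than in skin by 2.01 ± 0.52 (edgeR adjusted p = 0.0042), with 11.5 ± 4.14 CPM in mTEC and 2.46 ± 0.859 in cTEC against 1.30 ± 0.835 CPM in skin. Adam10, which releases Egf and Btc, was higher in lung (272 ± 9.36 CPM) and colon (165 ± 8.01) than in the thymus or skin (52.7 to 85.1 as group means). It was lower in thymic than in extrathymic epithelium (log2 fold change -1.02 ± 0.12, edgeR adjusted p = 2.92e-06).

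Among 18 relay genes, 8 were lower in the thymus than in skin and 4 were higher (44.4% and 22.2%), beside 25.6% and 35.6% of all genes tested. Hras was at 70.5 ± 7.70 CPM in cTEC and 55.6 ± 5.75 in mTEC, and at 270 ± 46.7 CPM in skin, lower (log2 fold change -2.11 ± 0.12, edgeR adjusted p = 3.93e-09). Pik3r1, a regulatory subunit of PI3 kinase, was higher by 2.004 ± 0.182 (edgeR adjusted p = 3.87e-07), at 226 ± 20.9 CPM in cTEC and 142 ± 28.5 in mTEC, and at 44.6 ± 9.87 CPM in skin. Src was higher too, by 1.23 ± 0.13 (edgeR adjusted p = 1.93e-06). Mapk3, which encodes ERK1, was lower (log2 fold change -0.77 ± 0.14, edgeR adjusted p = 0.000266).

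Neuregulins bind ERBB3 and ERBB4, and their transcripts differed by member and by group. Nrg1 was at 15.6 ± 1.91 CPM in cTEC and 19.8 ± 5.77 in mTEC, between 65.0 ± 4.45 in lung and 8.16 ± 3.01 in skin, and colon had 0.728 ± 0.228 CPM. It was higher in thymic epithelium than in skin by 1.10 ± 0.24 (edgeR adjusted p = 0.0013), the only 1 of 3 tested to pass there. All 3 (Nrg1, Nrg2 and Nrg4) were higher than in the average of skin, colon and lung, in which colon had the lowest mean of each gene. Of all genes tested, 35.6% were higher than in skin and 37.3% than in that average. Nrg2 set cortex apart from medulla, with 13.2 ± 3.91 CPM in cTEC and 1.46 ± 0.359 in mTEC, lower in mTEC (log2 fold change -3.17 ± 0.45, edgeR adjusted p = 0.00032). Its means were 4.24 ± 1.81 CPM in skin and 5.35 ± 2.21 CPM in lung, so all mTEC libraries lay below and all cTEC libraries above those of skin and lung. In colon, which had the most Erbb3, 54 reads of Nrg1 and 7 of Nrg2 were counted over the 3 libraries.

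Between mTEC and cTEC, 7 of the 53 pathway genes were higher and 4 lower, 13.2% and 7.55%, close to the 15.2% and 9.45% of all genes tested. Dusp4 was higher in mTEC by 2.74 ± 0.48 (edgeR adjusted p = 0.0014) and Ccnd1, the cyclin D1 gene, by 1.18 ± 0.22 (edgeR adjusted p = 0.0019). Map2k1, which encodes MEK1, was lower (log2 fold change -0.55 ± 0.13, edgeR adjusted p = 0.0074). With replicate numbers as a block among the thymic libraries, 13 were higher and 7 lower. In that fit 3167 of 17231 genes tested were lower, and 55.3% of all genes called were higher. Without mTEC replicate 1 the pathway counts fell to 4 and 2, beside 1513 higher and 895 lower of 19744 genes tested. The calls of Lrig1, Pik3r1, Adam10, Adam12 and Etv5 in this comparison were each lost without at least 1 of the thymic libraries.

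**Figure D5:**
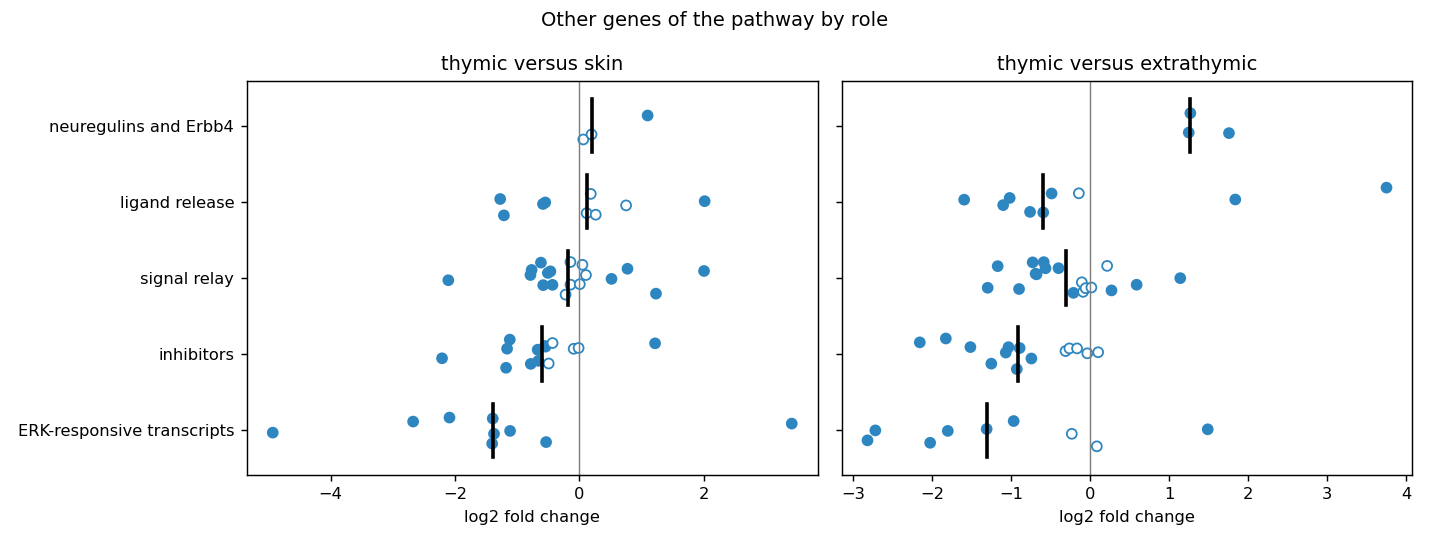
Log2 fold changes of the 53 other pathway genes by role, for thymic epithelium against skin (left) and against skin, colon and lung together (right), with filled points called at an edgeR adjusted p under 0.05, open points not called and a black bar at the median of each role. Points lie mostly left of 0 for ERK-responsive transcripts and inhibitors.

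The genes most like Areg over the 15 libraries, by Pearson's r of log2 CPM, were Selenoi (0.992), Cd55 (0.989), Reep6 (0.982) and Nrd1 (0.980). Those most like Erbb3 were Cd55 (0.985), Selenoi (0.984), Lgals3 (0.978) and Slc35f6 (0.976), so Selenoi and Cd55 stand in both lists. Cd55, which encodes a membrane regulator of complement, had mean levels of 5.63 CPM (cTEC) and 6.96 CPM (mTEC) in the thymus, 129 CPM in skin, 198 CPM in colon and 94.3 CPM in lung. Those most like Egfr were Glt8d2 (0.970), Zfp503 (0.963), Serpina3c (0.961) and Stx2 (0.958). Zfp503, a zinc finger gene, was highest in cTEC at 84.8 CPM and lowest in colon at 3.70 CPM. The 15 points share tissue and kit within each group, so these values describe the pattern of 5 groups.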

How the data were processed

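Reads were aligned with STAR 2.5.1b to GRCm38 and quantified with RSEM 1.2.28 after bcl2fastq 2.20, per the submitters' processing notes. Which annotation release they used is not stated in these sources. The deposited gene tables hold read counts in an unstranded and 2 stranded columns, of which the sense column was used. Sense reads outnumbered opposite-strand reads 8.43 to 19.3 times, and 24.2% to 46.9% of reads lay outside genes and were left out. The authors' RSEM tables give expected counts, rounded here for an alternative fit, and TPM, used as deposited to compare genes with each other. Of 50600 identifiers, 50376 were found in GENCODE M21.

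Reads were scaled with TMM in edgeR 4.0.16 and filtered with filterByExpr, and all 15 libraries entered a single model with 5 group terms (biological coefficient of variation 28.1%). Tests were edgeR's quasi-likelihood F-tests, adjusted by Benjamini-Hochberg over 19107 genes, with a call where the adjusted p was under 0.05. In fitted log2 differences, cTEC and mTEC were averaged as thymic, and skin, colon and lung as extrathymic. Ratios of CPM use group means.

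The members and lists were chosen with earlier results of these data known. All 10 members are named, together with the 2 pathway genes of smallest p per role and direction, from which a selection is printed, and the 4 genes most correlated with Areg, Egfr and Erbb3. Promoters were matched by symbol to RefSeq for 7 of 10 members, and those of Ereg, Hbegf and Erbb3 were not. The Epgn window was shortened by 53 bases to end before the annotated transcript.

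Deviations of cTEC and mTEC libraries of the same number correlated at 0.156 to 0.290, against -0.0636 to 0.114 in other pairs of groups, so the numbers were taken to pair cTEC with mTEC. This comes from the data, not from the labels. The main fit has no term for this pairing, which entered only the alternatives with a replicate block. Nothing in the labels says more on how the pools of a group were separated than that each was made from 5 mice. Reads without molecular identifiers are not independent molecules, so limits from counts of 0 cover counting error only. Alternatives were DESeq2 1.42.0, other scalings and filters, RSEM and unstranded counts, a replicate block, fits of 2 groups alone, and leaving out Gm42418 or each library.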

Additional observations from a re-analysis of the deposited data

How the results depend on the processing

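Most results kept their direction and call under all alternatives run. The comparison of mTEC with cTEC was the least stable. With each library left out in turn, it gave 3 to 5 members higher, 4 to 9 pathway genes higher and 2 to 5 lower, and 1513 to 4092 genes higher and 895 to 2462 lower in all. With only these 2 groups fitted, 3 members were higher. With the replicate block in the thymic libraries only, an alternative chosen after seeing the data, 13 pathway genes were higher and 7 lower. In that fit 3167 of 17231 genes tested were lower, against 1806 of 19107 in the main fit. Of all genes called in it, 55.3% were higher, and no member's call changed. A replicate block over all groups, whose numbers are not paired outside the thymus, added calls for Hbegf, lower in skin than in colon (-1.08, edgeR adjusted p = 0.0402), and Erbb3, higher in skin than in lung (0.44, 0.0278).

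Upper quartile scaling shifted all genes together, their median difference (log2) going from 0.14 to 0.30 in thymic against extrathymic epithelium and from -0.15 to 0 in skin against lung. Under it Areg (0.051) and Egfr (0.015), neither called, turned higher in skin than in lung, and Erbb3 lost its call between skin and colon (edgeR adjusted p = 0.0752). Erbb3 was called higher in skin than in lung with the size factors of DESeq2 (0.0426), with upper quartile scaling (0.0229) and in DESeq2 itself (0.0361). Hbegf was called lower in skin than in colon without a filter on low counts (0.0454), without cTEC replicate 3 (0.0226) and with these 2 groups fitted alone (0.0359), and lower in lung than in colon with those 2 groups alone (0.00814). Hbegf between mTEC and cTEC, not called, turned with the replicate block in the thymic libraries (0.045). With each library left out in turn, uncalled or untested log2 differences that changed sign ran from -0.58 (without cTEC replicate 3) to 0.34 (without cTEC replicate 2) for Hbegf between mTEC and cTEC, and from -0.34 to 0.21 (without lung replicate 1) for Areg between skin and lung. They ran from -0.56 (without skin replicate 3) to 0.025 (without skin replicate 1) for Ereg between skin and colon, from -0.65 to 0.28 (without skin replicate 1) for Egf between skin and lung, and from -0.066 (without skin replicate 2) to 0.27 for Egfr between thymus and skin. The cause of these changes was not tested.

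In TPM, 6 of the 10 members kept the order of the 5 groups, and the other 4 swapped groups whose libraries overlap. Against skin alone 7 members, in place of 4 against all extrathymic groups, had every thymic library lower, with fewer libraries compared. Depth limits Egf, Btc, Epgn, Areg and Ereg, each of which had under 100 reads in at least 1 group.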
